A study of Drosophila melanogaster with 6 samples.

Results

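The glutathione S-transferase (GST) genes of Drosophila melanogaster were followed in ovaries labelled uap56 and ovaries labelled vasa. Members were taken by name, as every measured gene whose symbol is GstD, GstE, GstS, GstT, GstO or GstZ followed by a number. All 41 transcript entries of this kind were matched by RefSeq accession, and they gave 35 genes of 13690 measured, with 11 in the Delta class, 14 in Epsilon, 1 in Sigma, 4 in Theta, 3 in Omega and 2 in Zeta. Total RNA of dissected ovaries from yeast-fed adults kept on cornmeal medium was hybridized to Affymetrix tiling arrays, 3 for each group. The groups are named for UAP56, a DEAD-box helicase of mRNA export encoded by Hel25E, and for Vasa, a DEAD-box helicase of the germline encoded by vas. The labels give no alleles, no ages and no statement on whether the replicates came from separate flies, so p-values measure the spread between these arrays, which may be technical. Wild type ovaries were not analysed here, and each difference therefore sets one group against the other.

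GSTs are enzymes that join the tripeptide glutathione to reactive compounds, which makes these easier to remove, and some act as isomerases or reductases. The Delta and Epsilon classes are expanded in insects, lie mostly in tandem clusters and are best known for handling insecticides, plant compounds and products of lipid peroxidation. In the fly ovary one Epsilon enzyme, GstE14 (Noppera-bo), is known for its part in making the steroid hormone ecdysone, and the promoter of GstD1 is widely used as a reporter of oxidative stress.

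In the main fit described below, 7 of the 35 members, in 4 classes, passed the test, in both directions. Of all genes 3.83% passed. None of the 7 calls held in every fit that left out 1 array, or at an adjusted p of 0.01. None held in the second fit described below, which used one variance prior for all genes. The Theta gene GstT4 was 4.24-fold higher in uap56, the Epsilon gene GstE11 3.38-fold, the Zeta gene GstZ1 2.86-fold and the Epsilon gene GstE1 2.06-fold. The Epsilon genes GstE10 and GstE6 and the Sigma gene GstS1 were higher in vasa, GstS1 by 2.68-fold and GstE6 by 1.86-fold. GstE10 was not above background in uap56. None of the 11 Delta genes and none of the 3 Omega genes passed the test, among them GstD1, whose signal was the strongest of the family.

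The test was limma with a variance trend along intensity, applied to log2 intensity over all genes at an adjusted p of 0.05. It placed 4 of 35 GST genes higher in uap56 and 3 higher in vasa, which is 20% of the family. Of all genes tested 3.83% passed, 2.48% toward uap56 and 1.35% toward vasa. The members were chosen with earlier results of these arrays known, so these shares describe the family and are no test of it. With one variance prior for all genes, limma called 0 of the 35 members at the adjusted threshold and 13 at an unadjusted p of 0.05. The same fit called 2 of all genes (0.0146%), and 15.3% had an unadjusted p under 0.05. In the trend fit 14 members and 18.2% of all genes had an unadjusted p under 0.05. Among genes above background on all 6 arrays, 6 of 21 members and 6.75% of all such genes passed the adjusted threshold.

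On the arrays, vas stood at 2045, 1686 and 1364 in uap56 and at 267, 242 and 383 in vasa, so that every vasa array was lower (5.75-fold, adjusted p = 0.00183). Hel25E did not pass, with means of 1419 ± 326 for uap56 and 1610 ± 192 for vasa (SD, n = 3 each). Intensity is in arbitrary units, with a median transcript of 163 to 184 on the 6 arrays. Pairs of arrays correlated across genes at 0.874 to 0.900 within a group and at 0.863 to 0.881 between groups. Ovary markers were present, with 8 of 9 germline and 14 of 15 follicle cell markers above the background level described with the GST levels on all 6 arrays. Of the germline markers 2 passed toward vasa, ovo (log2 difference -0.74, adjusted p = 0.0422) and stau (-0.89, adjusted p = 0.0440), with summed intensities of 6564 to 9424 in uap56 and 9938 to 13166 in vasa. The median log2 difference of the germline list was -0.53, and 8 of its 9 genes lay below 0. In the trend fit 6 of the 9 had an unadjusted p under 0.05, against 18.2% of all genes, and with one prior 2 had. Of the follicle cell markers 1 passed toward uap56, the chorion gene Cp15 (0.71, adjusted p = 0.0291), with sums of 128843 to 159080 and 115709 to 130041. That list's median was -0.07, with 7 genes above 0 and 8 below. The 3 genes ovo, stau and Cp15 each passed in 2 of the 6 fits without 1 array, those without uap56 replicate 1 and without vasa replicate 1. The part of these markers in the GST differences was not tested, and in bulk tissue, fewer cells of a type and less RNA per cell cannot be told apart.

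The median log2 difference, uap56 minus vasa, was 0.13 over the 35 members and 0.02 over all genes. The median size of the difference regardless of sign was 0.53 in the family and 0.34 over all genes. Differences lay above 0 for 20 members and below 0 for 15. In 14 members (40%) all arrays of one group were above all of the other, as in 23.5% of all genes. Both held, a separation and an unadjusted p under 0.05, for 12 members and for 15.9% of all genes. A log2 difference of at least 1 in size was found in 9 members and in 11.3% of all genes. The summed intensity of the 35 genes ran from 12745 to 14818 on the uap56 arrays and from 9980 to 13272 on the vasa arrays, and these ranges overlap.

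The first question is which members were seen in the ovary at all. Odorant and gustatory receptor genes, of which 117 were measured, served as a reference for genes little used in this tissue. Their 95th percentile lay between 70.3 and 94.1 on the 6 arrays, and the median gene between 124 and 133. By this measure 21 of the 35 members were above the chemoreceptor level on all 6 arrays, 5 were below it on all 6 and 9 lay above it on some arrays. Of all genes, 49.7% were above it on all 6. How probes were chosen and summarised is not given in the sources used here, and probes differ in response, so the order of levels between genes is approximate.

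**Figure D1:**
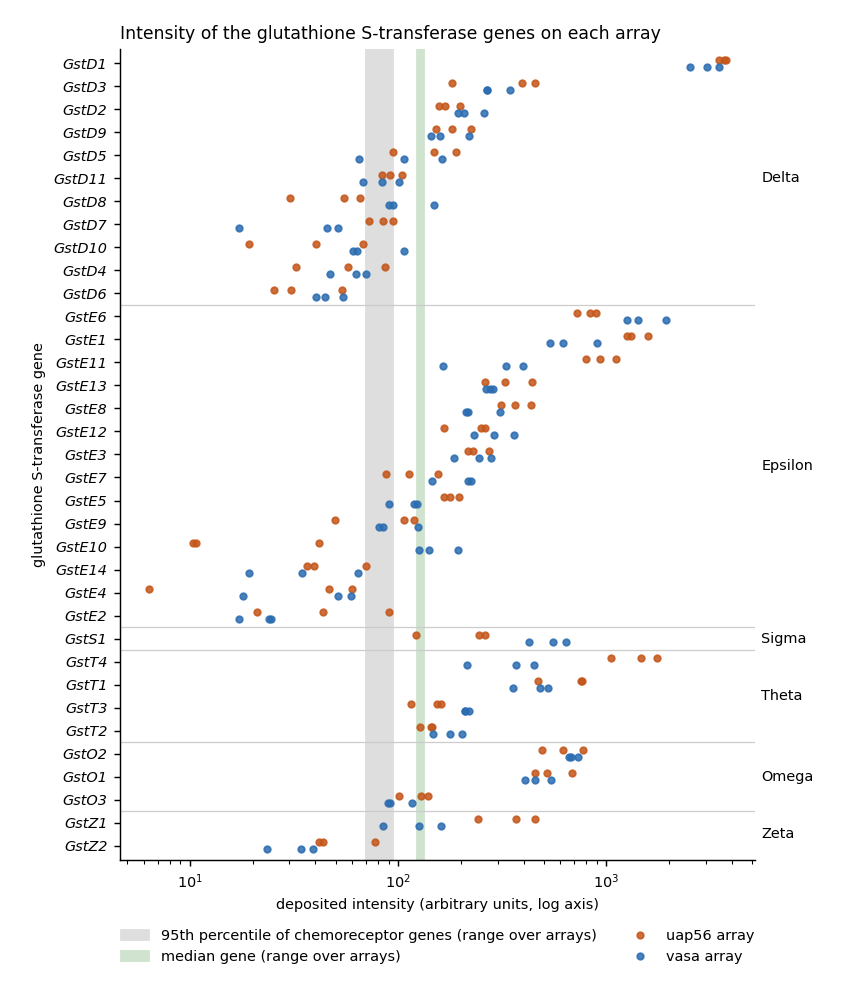
Deposited intensity (arbitrary units, log axis) of each of the 35 genes on the 3 uap56 and 3 vasa arrays, 1 point per array, grouped by class and ordered by mean. The grey and green bands span the 95th percentile of chemoreceptor genes (70.3 to 94.1) and the median gene (124 to 133) over the arrays, and GstD1 stands highest while 5 genes stay left of their arrays' chemoreceptor level throughout.

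GstD1 had the highest signal of the family in both groups. Its intensity was 3463, 3654 and 3759 on the uap56 arrays and 3468, 3034 and 2518 on the vasa arrays, which places it at percentiles 98.5 and 98.1 of all genes. The groups overlapped, and the log2 difference was 0.28 with a 95% interval from -0.04 to 0.60 (adjusted p = 0.340). Its second transcript entry gave 0.30. The other members above the upper quartile of genes on every array were few: with GstD1 they made 5 in all, namely GstE1, GstE6, GstO1 and GstO2.

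The 5 members below the chemoreceptor level on every array were GstD4, GstD6, GstE4, GstE14 and GstZ2. GstE14 stood at 48.6 ± 18.5 (SD, n = 3) in uap56 and 39.2 ± 22.7 in vasa. Its log2 difference was 0.42 (adjusted p = 0.742), and it was -0.013 without vasa replicate 1, so no direction can be given. Signals at this height were also seen for chemoreceptor genes, and no expression is read from them.

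Among the 4 Theta genes, 1 passed the test. GstT4, on the X chromosome, stood at 1049, 1461 and 1753 on the uap56 arrays and at 369, 213 and 450 on the vasa arrays. Every uap56 array was above every vasa array, and the gene stood at percentile 95.2 of all genes in uap56 and 72.6 in vasa. The log2 difference was 2.08 ± 0.29 (SE, adjusted p = 0.0112, and adjusted p = 0.129 with one variance prior). Without uap56 replicate 2 the adjusted p was 0.0525, and the gene passed in the other 5 fits that left out 1 array. The annotated neighbours of GstT4, CG12725 and CG1998, had log2 differences of 0.01 and -0.65 and did not pass.

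The other Theta genes did not pass. GstT3, also X-linked, gave 154, 160 and 115 on the uap56 arrays and 209, 218 and 210 on the vasa arrays. The groups did not overlap, with vasa higher, but the log2 difference of -0.59 (95% interval -1.06 to -0.11) had an unadjusted p of 0.0218 and an adjusted p of 0.182. GstT1 and GstT2 lie next to each other on 2R, and their log2 differences were 0.53 (unadjusted p = 0.0440, adjusted p = 0.259) and -0.33 (adjusted p = 0.494). Both were above the chemoreceptor level on all 6 arrays, GstT1 at 664 ± 167 in uap56 and 453 ± 85.4 in vasa and GstT2 at 139 ± 9.31 and 175 ± 27.9 (SD, n = 3 each).

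Epsilon, the largest class, had the most members past the test, 4 of 14, with 2 in each direction. Of all genes 3.83% passed, and with one variance prior 0 of the 14 did. An unadjusted p under 0.05 was found for 7 of the 14 in either limma fit. Over all genes the share was 18.2% in the trend fit and 15.3% with one prior. The class comprises a run of 10 genes on 2R, from GstE10 to GstE9, and 4 genes elsewhere on that arm. The median log2 difference of the class was 0.15.

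GstE11, outside the run, stood at 798, 931 and 1112 on the uap56 arrays and at 396, 331 and 163 on the vasa arrays. All uap56 arrays were above all vasa arrays, and the lowest vasa array was still above the chemoreceptor level. The log2 difference was 1.76 ± 0.31 (SE, adjusted p = 0.0210, and 0.153 with one variance prior). It passed in 3 of the 6 fits without 1 array, and was lost without uap56 replicate 2 (adjusted p = 0.0754), uap56 replicate 3 (adjusted p = 0.0711) or vasa replicate 2 (adjusted p = 0.0569).

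GstE1 stood at 1312, 1575 and 1253 on the uap56 arrays and at 897, 621 and 533 on the vasa arrays, again with no overlap. The log2 difference was 1.04 ± 0.20 (SE, adjusted p = 0.0286, and 0.173 with one variance prior). The call was lost without uap56 replicate 2 (adjusted p = 0.112), uap56 replicate 3 (adjusted p = 0.0686), vasa replicate 2 (adjusted p = 0.0979) or vasa replicate 3 (adjusted p = 0.1003).

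GstE10, the first gene of the run, differed in the opposite direction from GstE1 beside it. Its intensity was 10.7, 41.7 and 10.3 on the uap56 arrays and 141, 194 and 126 on the vasa arrays. All uap56 values were below the chemoreceptor level of their arrays and all vasa values above it. Taking the chemoreceptor level in place of the uap56 values, a bound chosen after the values were seen, GstE10 was at least 1.82-fold higher in vasa. The fitted log2 difference was -3.18 ± 0.55 (SE, adjusted p = 0.0179, and 0.136 with one variance prior), but its size depends on the weakest values, with -2.28 after a pseudocount of 16 and -3.85 without uap56 replicate 2. It passed in 3 of the 6 fits without 1 array, and was lost without uap56 replicate 3 (adjusted p = 0.0615), vasa replicate 2 (adjusted p = 0.0770) or vasa replicate 3 (adjusted p = 0.0632). In the current annotation the spans of GstE10 and GstE1 overlap, and since the labelled target was double-stranded DNA, signal in a shared stretch cannot be assigned to one of them.

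GstE6, whose mean over the 6 arrays was the highest of the class, stood at 830, 889 and 723 on the uap56 arrays and at 1936, 1423 and 1250 on the vasa arrays. The groups did not overlap, and every value of both was far above the chemoreceptor level. The log2 difference was -0.90 ± 0.18 (SE, adjusted p = 0.0329, and 0.183 with one variance prior). It passed in 0 of the 6 fits without 1 array, with adjusted p from 0.0532 without uap56 replicate 1 to 0.0931 without uap56 replicate 3.

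**Figure D2:**
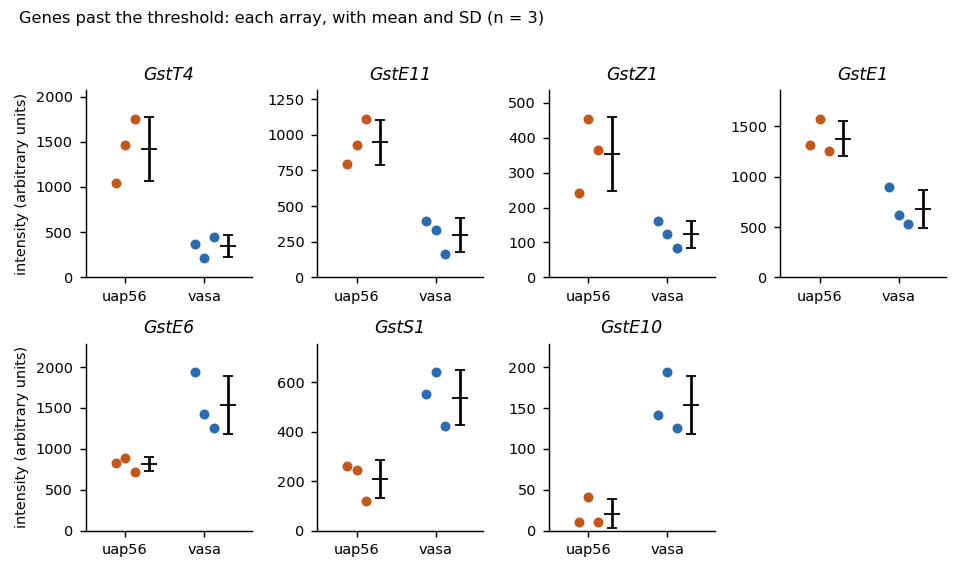
Intensity (arbitrary units, linear axis from 0) on each array of the 7 genes past the threshold, with the mean and SD of the 3 arrays of a group beside the points. GstT4, GstE11, GstZ1 and GstE1 are higher on all uap56 arrays, and GstE6, GstS1 and GstE10 are higher on all vasa arrays.

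Of the other Epsilon genes, 3 had an unadjusted p under 0.05 without passing the adjusted threshold. GstE5 gave 165, 197 and 178 on the uap56 arrays and 118, 90.1 and 123 on the vasa arrays (log2 difference 0.71, adjusted p = 0.136). GstE8 gave 435, 312 and 363 against 309, 216 and 213 (0.60, adjusted p = 0.174). In both the uap56 arrays were all higher. GstE7, at 118 ± 34.7 in uap56 and 196 ± 43.2 in vasa (SD, n = 3 each), had overlapping arrays and a difference of -0.74 (adjusted p = 0.215).

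The remaining Epsilon genes did not reach an unadjusted p of 0.05. Well above the chemoreceptor level in both groups were GstE3, with 239 ± 30.3 in uap56 and 236 ± 48.1 in vasa, GstE13, with 343 ± 91.2 and 276 ± 10.9, and GstE12, with 226 ± 51.4 and 292 ± 65.0. Their log2 differences were 0.03 (95% interval -0.45 to 0.51), 0.28 (-0.20 to 0.76) and -0.38 (-0.93 to 0.17). GstE9, GstE2 and GstE4 were near or below the chemoreceptor level, with differences of -0.14, 1.02 and -0.54 and wide intervals, that of GstE4 from -2.51 to 1.43.

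Along the run of 10 Epsilon genes the differences changed sign repeatedly. From GstE10 to GstE9 they were -3.18, 1.04, 1.02, 0.03, -0.54, 0.71, -0.90, -0.74, 0.60 and -0.14, and 3 of these passed. The signs of GstE3, GstE4 and GstE9 changed when single arrays were left out, so their directions are not settled. The genes flanking the run, Idgf5 and imd, had -0.08 and 0.22 and did not pass. Members of such runs are similar in sequence, and how far their signals mix on the array was not tested.

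**Figure D3:**
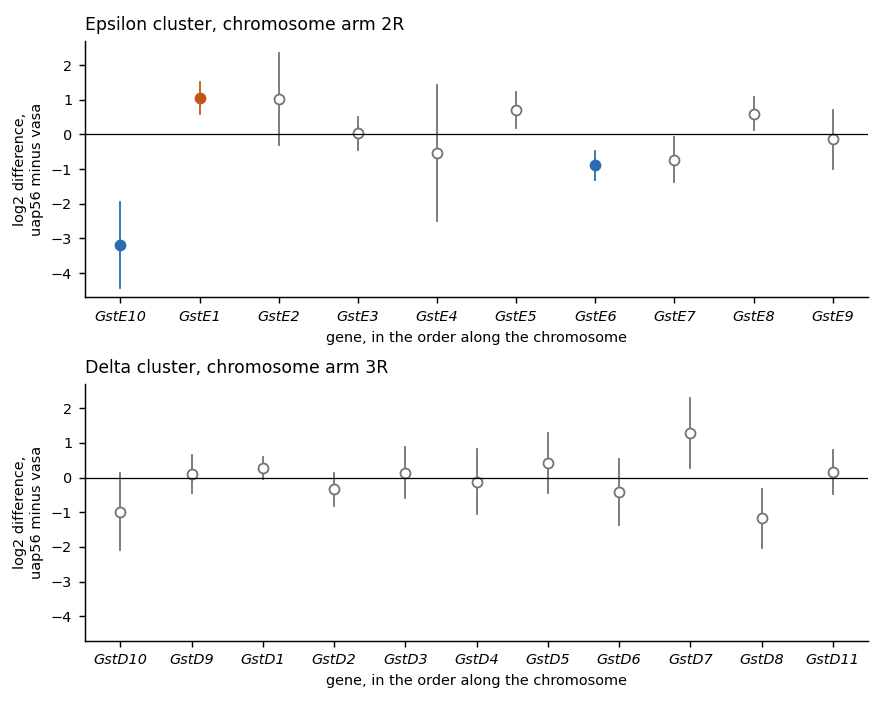
Log2 difference (uap56 minus vasa) with its 95% interval for the genes of the Epsilon run on 2R and the Delta run on 3R, in their order along the chromosome and with even spacing. Filled points passed an adjusted p of 0.05: GstE10 and GstE6 toward vasa, GstE1 toward uap56, and no Delta gene.

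The Delta class lies in a single run of 11 genes on 3R, and limma called 0 of 11 in both fits, while 2 had an unadjusted p under 0.05 in both. This is 18.2% of the class, and the share over all genes was 18.2% in the trend fit and 15.3% with one prior. The 2 were the adjacent genes GstD7 and GstD8, which differed in opposite directions. GstD7 gave 94.3, 84.5 and 72.0 on the uap56 arrays and 51.1, 45.3 and 17.2 on the vasa arrays (log2 difference 1.28, 95% interval 0.26 to 2.30, adjusted p = 0.168). GstD8 gave 54.9, 30.3 and 65.5 against 149, 94.3 and 90.2 (-1.18, interval -2.03 to -0.32, adjusted p = 0.135). Neither pair of groups overlapped, but each gene lay below the chemoreceptor level on every array of the group where it was lower. In uap56, where it was higher, GstD7 was above that level on only 2 arrays.

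Besides GstD1, the Delta genes above the chemoreceptor level on all 6 arrays were GstD2, GstD3 and GstD9. GstD2 stood at 174 ± 20.9 in uap56 and 220 ± 34.7 in vasa, GstD3 at 343 ± 144 and 292 ± 45.0, and GstD9 at 186 ± 35.9 and 174 ± 39.2 (SD, n = 3 each). Their log2 differences were -0.34 (95% interval -0.81 to 0.13), 0.13 (-0.60 to 0.87) and 0.10 (-0.45 to 0.65). GstD3 and GstD9 changed sign when single arrays were left out. The weaker Delta genes GstD4, GstD5, GstD6, GstD10 and GstD11 had differences of -0.12, 0.42, -0.41, -0.99 and 0.16, with overlapping arrays in each case.

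GstS1 is the only Sigma gene. Its product is abundant in flight muscle and acts on products of lipid peroxidation. The strongest of its 3 transcript entries stood at 262, 244 and 121 on the uap56 arrays and at 552, 640 and 423 on the vasa arrays. The vasa arrays were all higher, with a log2 difference of -1.42 ± 0.30 (SE, adjusted p = 0.0359, and 0.185 with one variance prior). When every transcript was fitted on its own, the 3 entries gave -1.51, -1.49 and -1.42, and all passed. As entries of 1 gene on the same arrays they are not independent of each other. The gene's call held in 1 of the 6 fits without 1 array, the one without uap56 replicate 1 (adjusted p = 0.0299), and the others gave adjusted p of 0.0556 without uap56 replicate 3 to 0.124 without vasa replicate 2. It was also lost without the robust option (adjusted p = 0.0515). Among the muscle markers, 9 of 11 were above the chemoreceptor level on all 6 arrays, at very unequal heights. Of the 11, 0 passed, the smallest p being those of Mp20 (0.60, adjusted p = 0.398) and Act88F (0.45, adjusted p = 0.431). The list's median log2 difference was 0.27, and its summed intensity was 8512 to 13184 on the uap56 arrays and 7705 to 11748 on the vasa arrays. The actin genes Act57B (means 4241 in uap56 and 3916 in vasa) and Act87E (2657 and 2453) weigh most in this sum. Mlc1 stood at 104 and 112, and TpnC4 was below the chemoreceptor level on every array. How far actin genes share signal on the array was not tested. In limma with one prior 0 of the 11 passed too, and by either fit 0 had an unadjusted p under 0.05. The part of muscle tissue in the GstS1 difference was not tested.

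The Zeta enzymes act as maleylacetoacetate isomerases in the breakdown of tyrosine. GstZ1 stood at 241, 454 and 366 on the uap56 arrays and at 161, 125 and 84.1 on the vasa arrays. The uap56 arrays were all higher, with a log2 difference of 1.52 ± 0.31 (SE, adjusted p = 0.0327, and 0.164 with one variance prior). The call was lost without uap56 replicate 2 (adjusted p = 0.120), uap56 replicate 3 (adjusted p = 0.0944), vasa replicate 2 (adjusted p = 0.0866) or vasa replicate 3 (adjusted p = 0.106). GstZ2 beside it lay below the chemoreceptor level on all arrays, and its 3 transcript entries gave -1.68, 0.73 and -0.05. The entry with -1.68 (SE 1.24) stood at 1, the floor of the values, on the array of uap56 replicate 3. No direction is read from these weak signals. Of the other 5 enzymes of tyrosine breakdown measured (Hn, Tat, Hpd, hgo and Faa), 0 passed, 0 had an unadjusted p under 0.05 and 0 were above the chemoreceptor level on all 6 arrays. The smallest p among them were those of hgo (log2 difference 0.71, adjusted p = 0.469) and Faa (0.55, adjusted p = 0.563).

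Omega enzymes have a cysteine in the active site and act as thiol transferases and reductases. All 3 Omega genes were above the chemoreceptor level on all 6 arrays, and none passed. GstO2, the strongest, gave 622, 773 and 489 on the uap56 arrays and 732, 673 and 661 on the vasa arrays. The groups overlapped, and the log2 difference was -0.16 with a 95% interval from -0.57 to 0.26. GstO1 (551 ± 118 in uap56 and 467 ± 69.1 in vasa) and GstO3 (123 ± 20.01 and 99.1 ± 15.1) had 0.23 and 0.31. In limma's trend fit and in the fit with one prior alike, 0 of the 3 had an unadjusted p under 0.05. Between GstO3 and GstO2 lies se (sepia), an Omega-type gene of eye pigment synthesis whose name is outside the rule. It was below the chemoreceptor level on every array, and its annotated span overlaps that of GstO2.

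**Figure D4:**
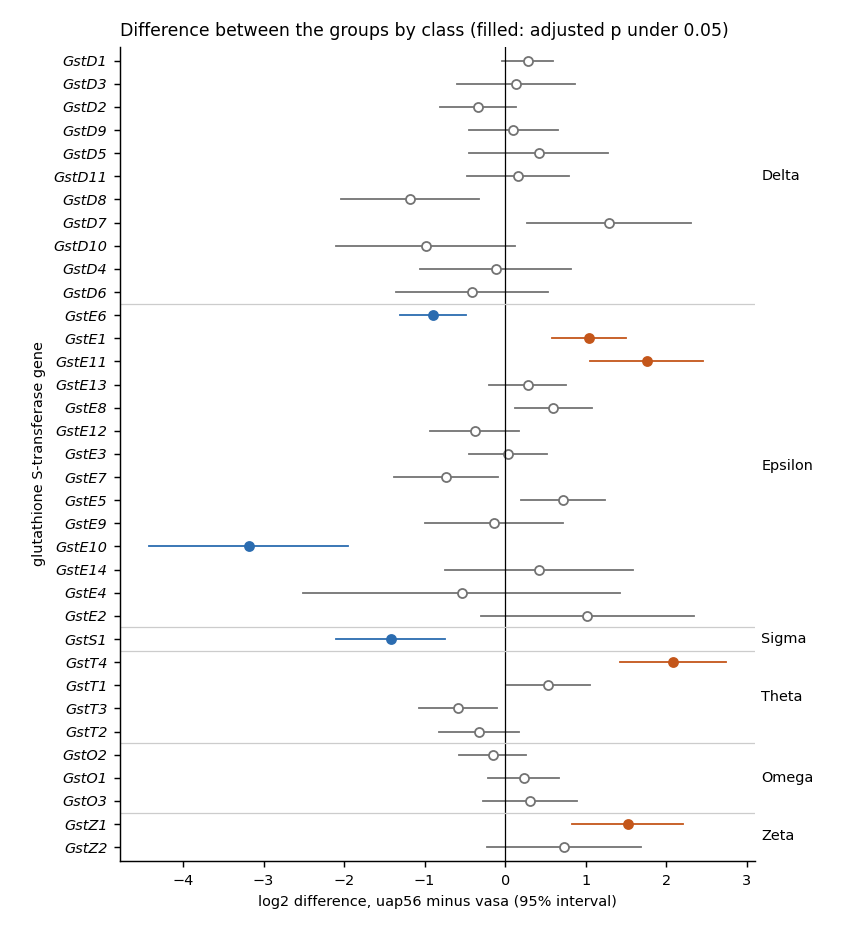
Log2 difference (uap56 minus vasa) with its 95% interval for all 35 genes, by class and in the same order as in the plot of intensities. Filled points passed an adjusted p of 0.05, orange toward uap56 and blue toward vasa. The 7 filled points are spread over the Epsilon, Sigma, Theta and Zeta classes, and the Delta and Omega classes have open points alone.

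The genes that make and recycle glutathione, the substrate of these enzymes, were read beside them. In this list 1 of 9 measured genes passed, against 3.83% of all genes, and with one variance prior 0 of the 9 passed. An unadjusted p under 0.05 was found for 2 of the 9 in either limma fit. Over all genes the share was 18.2% in the trend fit and 15.3% with one prior. Ggt-1, a gamma-glutamyl transpeptidase gene whose product starts the breakdown of extracellular glutathione, stood at 2124, 2102 and 1781 on the uap56 arrays and at 944, 1078 and 981 on the vasa arrays. The groups did not overlap (log2 difference 1.00 ± 0.14 SE, adjusted p = 0.00931, and 0.125 with one variance prior), and without uap56 replicate 2 the adjusted p was 0.0525. The list's median was 0.17. The subunits of the first enzyme of glutathione synthesis, Gclc and Gclm, had 0.17 (adjusted p = 0.750) and 0.83 (adjusted p = 0.0675). Both are named although outside the naming rule, with their values known.

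Among 13 other genes whose products use glutathione, carry it or share the GST fold, 1 passed, toward vasa. Of all genes 1.35% passed in that direction, and with one variance prior 0 of the 13 passed. An unadjusted p under 0.05 was found for 3 in limma's trend fit and 2 with one prior, against 18.2% and 15.3% of all genes. Mgstl, a microsomal glutathione transferase gene unrelated in sequence to the soluble classes, was higher on all vasa arrays. It gave 359, 356 and 358 on the uap56 arrays and 1005, 862 and 798 on the vasa arrays, a log2 difference of -1.30 ± 0.15 (SE, adjusted p = 0.00596, and 0.107 with one variance prior). It passed in all 6 fits without 1 array, which no member of the GST classes did. The list's median was -0.33.

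The next list held 16 genes of the regulator CncC, the fly relative of Nrf2 that controls many GST genes, and of antioxidant defence. Of these, 2 passed toward uap56 and 0 toward vasa, with a median of 0.35. Over all genes the shares were 2.48% and 1.35%, and the median was 0.02. With one variance prior 0 of the 16 passed. An unadjusted p under 0.05 was found for 6 in limma's trend fit and 4 with one prior, against 18.2% and 15.3% of all genes. Cat, encoding catalase, stood at 1205, 1564 and 1664 on the uap56 arrays and at 839, 869 and 826 on the vasa arrays. Its log2 difference was 0.79 (adjusted p = 0.0286, and 0.171 with one variance prior). Sod3, an extracellular superoxide dismutase gene, stood at 3042, 3505 and 3296 against 1786, 2526 and 1706. Its log2 difference was 0.73 (adjusted p = 0.0452, and 0.219 with one variance prior). In both genes the uap56 arrays were all higher, and each passed in 1 of the 6 fits without 1 array: Cat without uap56 replicate 1 (adjusted p = 0.0154) and Sod3 without vasa replicate 2 (adjusted p = 0.0383). The regulators themselves, cnc, Keap1 and maf-S, had -0.18, -0.08 and 0.38 and did not pass. They too were picked for mention with their values known.

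In the ecdysteroid list, which holds the partners of GstE14, 0 of 9 measured genes passed in either limma fit. Against 18.2% of all genes, 1 had an unadjusted p under 0.05 in the trend fit. This was Npc1a, a sterol transport gene, with -0.65 (adjusted p = 0.0793), followed by spo with -0.64 (adjusted p = 0.342), and the list's median was -0.28. In the pteridine pigment list 0 of 7 passed and 0 had an unadjusted p under 0.05, with mal (0.47, adjusted p = 0.297) and Pu (0.35, adjusted p = 0.469) having the smallest p.

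Apart from muscle, markers of other tissues were mostly weak. Of the fat body list 3 of 10 genes were above the chemoreceptor level on all arrays, of the midgut list 1 of 12, of the hemocyte list 2 of 6, of the neuron list 2 of 6 and of the testis list 0 of 6, and 0 of each passed the test. At an unadjusted p of 0.05 the trend fit took 1 fat body, 1 midgut and 1 hemocyte gene and 0 of the neuron and testis genes. It took 18.2% of all genes. The smallest p in these lists were those of Fbp2 (-0.92) and Lsp1beta (-0.40) for fat body, deltaTry (-1.17) and betaTry (0.72) for midgut, Pxn (-0.59) and srp (-0.26) for hemocytes, brp (-0.49) and para (-0.34) for neurons, and Mst84Da (1.014) and dj (0.63) for testis. Their adjusted p ran from 0.114 for deltaTry to 0.832 for dj. Of the spermatheca and oviduct list 2 of 5 passed toward uap56, Obp99a (603 ± 152 in uap56 and 149 ± 41.2 in vasa, log2 difference 2.03, adjusted p = 0.00785) and Oamb (1.08, adjusted p = 0.0409), while Send1, Send2 and Sems lay below the chemoreceptor level on all arrays. The sum of that list was 765 to 1106 on the uap56 arrays and 299.8 to 345.5 on the vasa arrays. Obp99a and Oamb (means 241 in uap56 and 116 in vasa) weigh most in this sum, so it adds little to their own differences. Of the Malpighian tubule list 1 of 5 passed, Best2 (621 ± 128 in uap56 and 290 ± 46.7 in vasa, 1.09, adjusted p = 0.0249). The other 4 lay on the vasa side of 0, Uro at -1.62, salt at -0.37, Irk2 at -0.32 and Lkr at -0.03, and were above the chemoreceptor level on at most 2 arrays. The list's median was -0.32, while its sum, in which Best2 weighs most, was 636 to 916 in uap56 and 424 to 609 in vasa. Obp99a passed in all 6 fits without 1 array, Oamb in 0 and Best2 in 2. Obp99a, Oamb and Best2 are named because they passed, and 2.48% of all genes passed toward uap56. The part of the tissues of these lists in the GST differences was not tested.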

How the data were processed

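Per the labels, each deposited file holds intensity summarised and normalized by the authors from an Affymetrix tiling array. Nothing used here names the method, the probe choice or the genome build. The precision is limited by 3 arrays per group. Values are linear, and 40.0% of the GST values recur for another gene on the same array, against 50.9% of the values of all genes. The 393 of 21158 entries at 0 on every array were left out, and log2 was taken with no pseudocount. Entries were named through RefSeq accessions (19234 entries) or gene names (1314) in a table on Release 6 of the fly genome, and 610 kept the file's name. Each gene is represented by the entry that is strongest on average over the 6 arrays.

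Groups were compared over all 13690 genes with limma 3.58.1 in R 4.3.3 (lmFit, eBayes with intensity trend and robust option, two-sided, Benjamini-Hochberg, 0.05). The fits were also run on simulated data in which the spread followed intensity, as the trend fit assumes. That run therefore cannot decide between the trend fit and the fit with one prior. Folds come from log2 means. Members, lists, the choice of the trend fit and the alternatives were made with earlier results of these arrays known. Named with their values on each array are members past the threshold, members with an unadjusted p under 0.05 and no overlap, and the strongest of each class; other members are given more briefly. In lists, genes past the threshold or else those with the smallest p are named. Transposon tables were not used here.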

Additional observations from a re-analysis of the deposited data

How the results depend on the processing

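The direction of the 7 called GST genes was the same in all 15 alternative fits, and their calls depended on the variance model and on single arrays. Counts toward uap56 and toward vasa were 4 and 3 in the GST classes and 340 and 185 over all genes. With one variance prior, or with the robust option alone, they were 0 and 0, and 1 and 1 over all genes. At a threshold of 0.01 they were 0 and 0, and 32 and 25 over all genes. Leaving out 1 array gave 0 to 4 and 0 to 2 in the GST classes, and 28 to 307 and 29 to 202 over all genes. Quantile normalization kept 4 and 3, with 376 and 344 over all genes. The labels do not pair the replicate numbers, and arrays with the same number did not deviate together (correlation -0.028 to 0 across genes, which are not independent). Among genes above the median the correlation was -0.142 to -0.043 for equal numbers and 0 to 0.102 for unequal ones. With the replicate block, which leaves fewer degrees of freedom, the counts were 2 and 2, and 140 and 86 over all genes. The median log2 difference of the GST genes stayed between 0.05 and 0.21. Above the chemoreceptor level stood 21 genes, 24 with its 90th percentile, and 18 had group means above the median gene. Members that did not pass and changed sign were GstE3 under quantile normalization (-0.017) and GstZ2 as the mean over transcripts (-0.33). Leaving out 1 array moved the log2 difference across 0 in GstE14 (-0.013 to 0.86), GstE3 (-0.14 to 0.16), GstE4 (-1.14 to 0.48), GstE9 (-0.37 to 0.25), GstO2 (-0.32 to 0.011), GstD9 (-0.041 to 0.28), GstD3 (-0.12 to 0.55) and GstD4 (-0.45 to 0.26). The cause of these changes was not tested, and for weak signals the background limits what can be read.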

Other observations

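Of the 24 genes measured inside or beside the runs of GST genes, 0 passed in either limma fit. An unadjusted p under 0.05 was found for 4 in each, against 18.2% of all genes in the trend fit and 15.3% with one prior. CG10035, a gene inside the Delta run, lay below the chemoreceptor level on 5 of 6 arrays, with 43.6 ± 23.2 in uap56 and 65.4 ± 11.8 in vasa (SD, n = 3 each) and a log2 difference of -0.76 (adjusted p = 0.479), and Tim17a1 and Sol1, at the ends of that run, had -1.13 (adjusted p = 0.261) and -0.18 (adjusted p = 0.772). Next to GstS1, CG6984 and CG46491 had 0.60 and 0.61, opposite in sign to GstS1, and neither passed (adjusted p = 0.117 and 0.139). Next to GstE11, CG30116 and CG43066 had -0.18 and 0.54 and did not pass, and beside the Zeta pair ps and CG16779 had -0.22 and 0.21. GstO2 had a second, weaker transcript entry, at 64.0 to 110 on the uap56 arrays and 82.4 to 151 on the vasa arrays, with a log2 difference of -0.55 (adjusted p = 0.398) against -0.16 for the stronger one.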
